A study of Mus musculus with 2 samples.

Results

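The 9 genes described here lie beside Mob1b on mouse chromosome 5. In map order they are Jchain, Utp3, Rufy3 and Grsf1 before Mob1b, and Dck, Slc4a4, Gc, Npffr2 and Adamts3 after it. They are not every gene of this stretch. Besides Mob1b, 6 other genes are listed between Jchain and Adamts3, of which 1, Gm7056, had a probe. Together they had 12 probes, against 27235 probes of 20660 named genes on the array. Probes were assigned through their RefSeq accession, and all 9 genes were found in this way. RNA of lung epithelial cells was hybridised to Agilent 1-colour oligonucleotide arrays, with 1 array for Mob1DKO cells and 1 for wild-type (WT) cells. Both samples came from C57BL/6 mice aged 10 weeks. The name Mob1DKO is taken here, from what is known of these mice, to mean that Mob1a and Mob1b are both lost. The structure of the alleles, the promoter that drives any Cre, the sex of the mice and how many mice gave each RNA are not given in the sources used here. The group was chosen by position and with the Mob1DKO to WT differences of these same arrays already known.

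MOB1A and MOB1B are adaptor proteins that bind the LATS and NDR kinases of the Hippo pathway, which restrains the transcriptional co-activators YAP and TAZ. The genes beside Mob1b share its position and not its function. They encode an antibody chain, proteins of ribosome and mitochondrial RNA biogenesis, a vesicle transport adaptor, a nucleoside kinase, a bicarbonate transporter, a plasma carrier of vitamin D, a neuropeptide receptor and a secreted protease.

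Values are levels on the log2 scale after subtracting the 75th percentile of each array, which was an intensity of 291 in Mob1DKO and 155 in WT. Differences are Mob1DKO minus WT on this scale. Differences were taken within a probe. Where a gene is called the brightest of a list, or signals of a list are summed, the signal also depends on each probe and does not order the genes by RNA amount. With 1 array per group no test could be run, and no p-value is given. The technical error of a difference was taken from probes printed at 10 spots, as the median SD between spots for probes of a similar level. It leaves out the spread between mice and between RNA preparations. A difference of 1 or more in size (2-fold) counted as a call, higher or lower, if the scanner software flagged the probe of the brighter array as well above background. This flag was set for 58.6% of all probes in Mob1DKO and 53.1% in WT. All 13 lung epithelial markers examined, among them Epcam, Cdh1, Nkx2-1 and Sftpc, were well above background on both arrays. None was called, but their summed signal was 5658 in Mob1DKO and 8505 in WT, in units of the 75th percentile of each array. Sftpc, the surfactant protein of type II alveolar cells, differed by −0.78 and Scgb1a1, the secretory protein of club cells, by −0.84. Both gave the brightest signals of the 13 markers and weigh most in the sum. The median difference over the 13 was −0.09, and 5 of the differences lay above 0, the largest that of Foxj1 at 0.65. The part of these shifts in the values below was not tested. Sex-linked genes differed together with genotype, with Xist 4.90-fold lower and the Y-linked Ddx3y at least 22.7-fold higher on the Mob1DKO array. Xist was still well above background there, at a level of −1.48 against 0.82 in WT. The Mob1DKO array thus held signal of both Xist and Ddx3y, and what lies behind this was not tested. Genotype and the sex of the mice behind each RNA therefore cannot be told apart in any difference below.

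Of the 9 flanking genes, 8 were measured on at least 1 array. Jchain, Slc4a4, Gc and Npffr2 were called higher on the Mob1DKO array and Dck was called lower. Utp3, Rufy3 and Grsf1 were not called, and the Adamts3 probe was not well above background in Mob1DKO or in WT. Across all 15099 named genes with a value, 3.79% were called higher and 2.91% lower. These differences were known when the genes were grouped, so the counts are a description and nothing is read from them. Of the 6 flanking genes well above background on both arrays, Slc4a4 and Gc were higher and Dck was lower, beside 1.25% of 13866 genes higher and 1.43% lower. The median over the 8 measured genes was 0.59, or 0.50 with Jchain and Npffr2 at their bounds, and 0.09 over the 6 genes measured on both arrays. The median over all named genes was 0.02. All 5 calls missed the 2-fold threshold when background was corrected with a model-based method (normexp) that adds an offset, as given for each gene below.

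Mob1b itself was lower on the Mob1DKO array on both of its probes. The brighter probe had an intensity of 36.9 in Mob1DKO, against 78.5 in WT. After scaling its level was −2.98 in Mob1DKO and −0.98 in WT, 4.003-fold lower in Mob1DKO, with a technical SD of 0.31. The other probe was 6.48-fold lower. Mob1a, which lies on chromosome 6, had a level of −2.49 in Mob1DKO and −2.56 in WT, a difference of 0.07 within its technical SD of 0.34. Under the normexp correction Mob1b differed by −1.13 and Mob1a by −0.42, so no direction is given for Mob1a. The sources used here do not place these probes relative to the deleted sequence, and the Mob1a level is therefore no check of its deletion. In RNA from a cell preparation, fewer cells of a type and less RNA per cell cannot be told apart, for Mob1b and for every gene below.

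**Figure D1:**
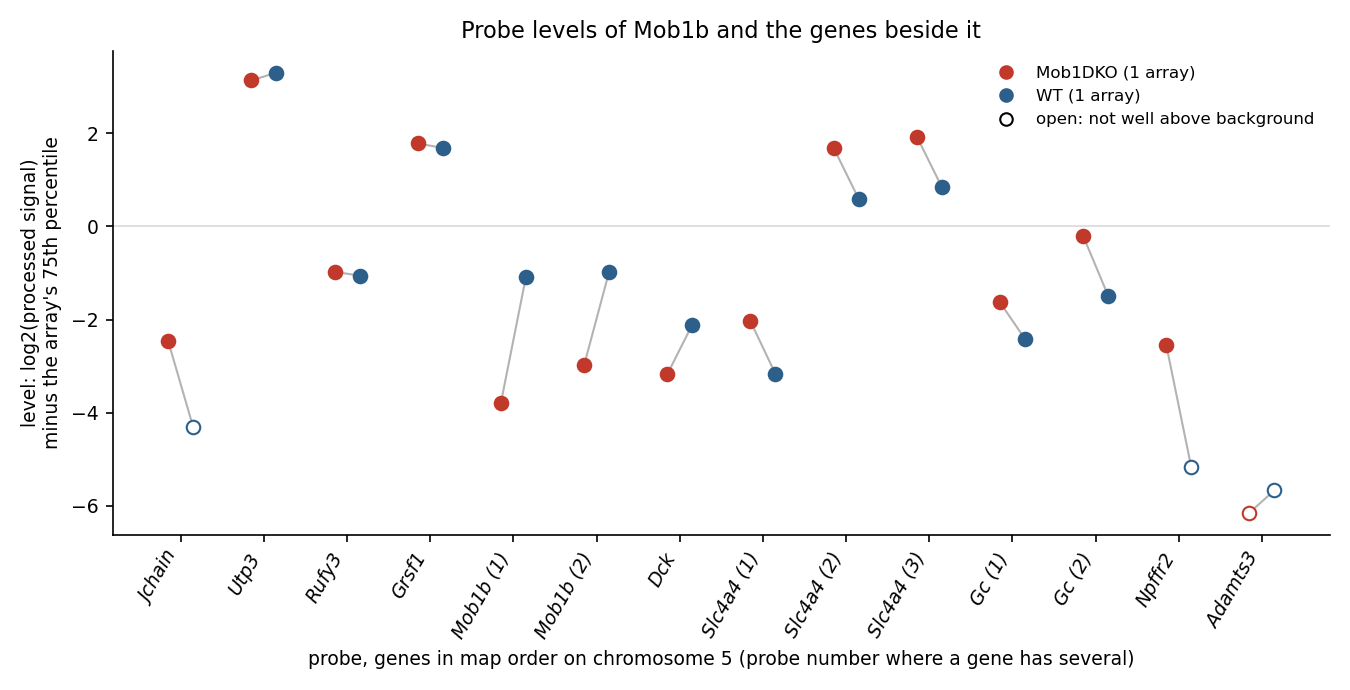
Level of every probe of Mob1b and the 9 flanking genes (log2 of the processed signal minus the 75th percentile of the array) in map order, with Mob1DKO in red on the left and WT in blue on the right of each pair; open circles were not well above background. Both Mob1b probes and the Dck probe sit lower in Mob1DKO, while all 3 Slc4a4 probes and both Gc probes sit higher.

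Before Mob1b, the outermost gene was Jchain, which encodes the small chain that joins IgA and IgM into polymers in plasma cells. Its probe gave an intensity of 52.6 ± 6.35 on the Mob1DKO array, against 7.81 ± 2.996 on the WT array, where ± is the error estimate of the scanner software. The spot had a median brightness of 127 over a local background of 65 in Mob1DKO, and of 77 over 70 in WT. The WT spot was therefore close to its background, and only a bound is given. With the WT level set to −3.45, the lowest level well above background on that array, Jchain was at least 1.98-fold higher in Mob1DKO. Some probes not well above background lay above that level, so the bound is not a detection limit. The same holds for every fold given as at least, and differences under the normexp correction can fall below it. Its level was −2.47 in Mob1DKO and −4.31 in WT, and the difference of 1.84 shrank to 0.16 under the normexp correction. Across the array, 955 named genes were well above background in Mob1DKO only and 278 in WT only, and 41.7% of the 955 were called higher and 86.7% of the 278 lower.

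Markers of B and plasma cells were examined beside Jchain. Of 9 such genes 7 had a probe, and 3 of these were not well above background in Mob1DKO and 5 in WT. Over all probes the flag was set for 58.6% in Mob1DKO and 53.1% in WT. Cd79a, a part of the B cell receptor, was at least 3.38-fold higher in Mob1DKO, and Tnfrsf17, the plasma cell receptor BCMA, at least 1.55-fold higher. Under the normexp correction they differed by 0.20 and 0.08. Cd79b and Mzb1 differed by 0.30 and 0.31. For the defining marker Ms4a1 neither array gave signal well above background. The signal summed over the 7 probes was 6.52 in Mob1DKO and 5.13 in WT, in units of the 75th percentile of each array. Most of this sum is Cd79b alone, which was not called and had a level of 2.47 in Mob1DKO and 2.17 in WT. The sum therefore does not describe the 7 genes as a set. The part of these cells in the Jchain value was not tested.

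Utp3, Rufy3 and Grsf1, the 3 genes between Jchain and Mob1b, differed little. Utp3 (also Sas10), a component of the processome that matures the small ribosomal subunit, had an intensity of 2565 in Mob1DKO and 1528 in WT. Its level was 3.14 in Mob1DKO and 3.30 in WT, a difference of −0.16 with a technical SD of 0.065. Rufy3, an adaptor that links ARL8-bearing lysosomes to dynein, had a level of −0.98 in Mob1DKO and −1.06 in WT. Its difference of 0.08 lay within the technical SD of 0.19. Grsf1, an RNA-binding protein of mitochondrial RNA granules and the nearest neighbour before Mob1b, had a level of 1.78 in Mob1DKO and 1.69 in WT. Its difference of 0.10 had a technical SD of 0.083. Under the normexp correction Utp3 turned to 0.14 and Rufy3 to −0.15, so no direction is given for either, and Grsf1 gave 0.21.

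After Mob1b, the nearest neighbour Dck was lower in Mob1DKO. It encodes deoxycytidine kinase, which phosphorylates salvaged deoxynucleosides and several nucleoside drugs. Its probe was faint, with an intensity of 32.2 ± 5.30 in Mob1DKO and 35.8 ± 4.77 in WT, over local backgrounds of 65 and 67. The level was −3.18 in Mob1DKO and −2.11 in WT, which is 2.09-fold lower in Mob1DKO and 3.01 times the technical SD of 0.35. The intensities themselves differed by −0.15 on the log2 scale, and the remainder of the difference of −1.06 comes from scaling the brighter Mob1DKO array. Of 2467 genes measured on both arrays at levels within 1 of Dck, 3.08% were called lower. The Dck difference was −0.73 under the normexp correction.

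Slc4a4 was higher in Mob1DKO on all 3 of its probes. It encodes the electrogenic sodium bicarbonate cotransporter NBCe1, which carries bicarbonate across the basolateral membrane of epithelia. The brightest probe had an intensity of 1111 in Mob1DKO and 279 in WT, the next 939 in Mob1DKO and 235 in WT, and the faintest 71.0 in Mob1DKO and 17.3 in WT. After scaling they differed by 1.08, 1.09 and 1.13, or 2.12-fold, 2.13-fold and 2.19-fold. The technical SD was 0.086, 0.093 and 0.34, so the 2 brightest differed by 12.5 and 11.7 times it. The probes measure the same RNA and are not replicates of the condition. Of 3949 genes measured on both arrays at levels within 1 of Slc4a4, 0.734% were called higher. Under the normexp correction Slc4a4 differed by 0.98, just under the threshold.

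Gc was higher on both of its probes, of which 1 passed the threshold. It encodes the vitamin D binding protein, an actin-scavenging plasma carrier made mainly by liver. The brighter probe had an intensity of 253 in Mob1DKO and 55.4 in WT, and levels of −0.21 in Mob1DKO and −1.48 in WT. It differed by 1.28, or 2.43-fold, with a technical SD of 0.17. The dimmer probe had an intensity of 94.0 in Mob1DKO and 29.1 in WT and differed by 0.78, or 1.72-fold, with a technical SD of 0.31. The mean of both probes was 1.03. At levels within 1 of Gc, 2.02% of 3619 genes measured on both arrays were called higher, and under the normexp correction Gc differed by 0.82. Of 6 hepatocyte markers, Alb was well above background on both arrays and differed by 0.07. Serpina1a, well above background in WT only, differed by −0.84 and was not called. The probes of Apoa1, Ttr, Fgb and Ahsg stayed near background on both arrays. The signal summed over the 6 markers was 0.988 in Mob1DKO and 1.01 in WT, and their part in the Gc value was not tested.

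Npffr2, a receptor for the pain-modulating neuropeptide FF, was well above background in Mob1DKO only. Its intensity was 49.7 ± 6.58 in Mob1DKO and 4.30 ± 3.28 in WT, and the spot brightness was 112.5 over a background of 65 in Mob1DKO and 72 over 67 in WT. The bound was at least 1.87-fold higher in Mob1DKO, so the true difference may be under 2-fold. The difference of 2.62 without the bound shrank to 0.03 under the normexp correction. Adamts3, a protease that trims procollagen and activates VEGF-C, had an intensity of 4.10 in Mob1DKO and 3.04 in WT. Neither is well above background, and no fold is given.

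**Figure D2:**
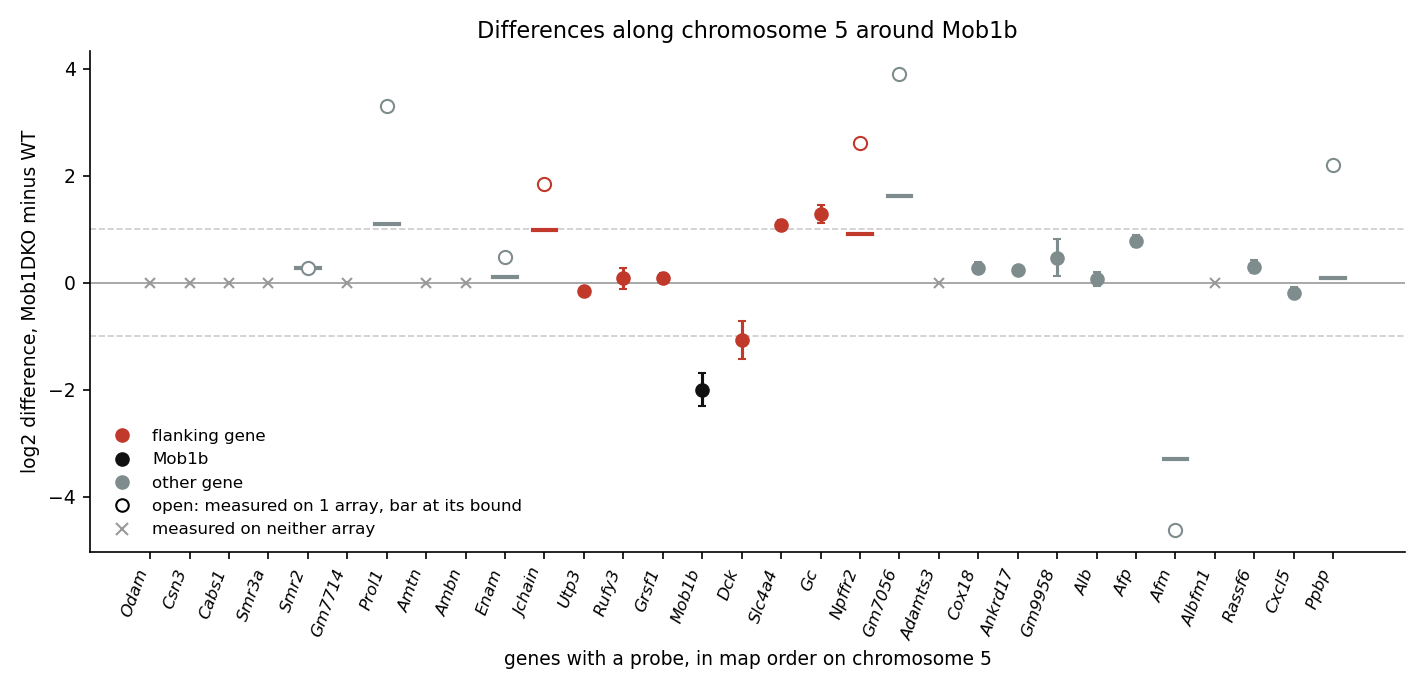
Log2 difference (Mob1DKO minus WT) of each gene with a probe, in map order along chromosome 5, for the flanking genes (red), Mob1b (black) and the other genes nearby (grey); whiskers are the technical SD, open circles were measured on 1 array and their bar marks the bound, and crosses were measured on neither array. Slc4a4 and Gc lie just above the dashed 2-fold line, Dck just below the lower one, and Utp3, Rufy3 and Grsf1 near 0.

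In map order, the flanking genes called and measured on both arrays were neighbours: Dck, Slc4a4 and Gc follow Mob1b without another measured gene between them, with Dck of opposite sign to the others. Their differences were known when the genes were grouped, so nothing is read from this order. The next 10 genes with a probe on each side of the flanking genes were examined in the same way. Of these 20 genes 12 were measured, 2 were called higher and 1 lower, and their median was 0.29. Over all named genes with a value, 3.79% were called higher and 2.91% lower. The called genes, Prol1, Ppbp and Afm, were each well above background on 1 array only. None of the 7 neighbours measured on both arrays was called, and nothing is read from the count. The median of the neighbours has no settled direction, since it was −0.03 (−0.0304) under the normexp correction and −0.06 (−0.0579) with no background filter. Before Jchain only 3 of 10 were measured, all of them in Mob1DKO only, in a stretch that holds salivary and enamel genes. There the nearest measured gene was Enam, with a bound of 1.08-fold, and Prol1 was at least 2.14-fold higher. After Adamts3, 9 of 10 were measured with a median of 0.28. Cox18, the nearest, differed by 0.28. Afm, a vitamin E carrier related to Gc and Alb, was at least 9.81-fold lower in Mob1DKO, and the chemokine gene Ppbp was called higher with a bound of only 1.06-fold. Afp, of the same albumin family, differed by 0.78. Over chromosome 5 as a whole, 940 genes were measured, 36 were higher and 27 lower, and the median was 0.03. Of all 15099 named genes with a value, 572 were higher and 439 lower.

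The genes beside Mob1a on chromosome 6 served as a second comparison, with 4 genes before it and 5 after it. They are every gene with a probe in map order, whereas the 9 genes around Mob1b leave out Gm7056. Of these 9 genes 8 were measured, all on both arrays, and with 75th percentile scaling all 8 differences lay below 0. Over the alternatives the median of this set ran from −0.28 to −0.20. It was −0.26 as scaled here, against 0.09 for the 6 genes around Mob1b measured on both arrays. Mthfd2, a mitochondrial folate enzyme on one side, differed by −0.23, and Bola3, an iron-sulphur cluster factor on the other, by −0.31. The smooth muscle actin Actg2 was the only gene called, at 2.02-fold lower in Mob1DKO. Over all genes measured on both arrays 1.43% were called lower. The difference between the sets was not tested, since 1 array per group allows no test.

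**Figure D3:**
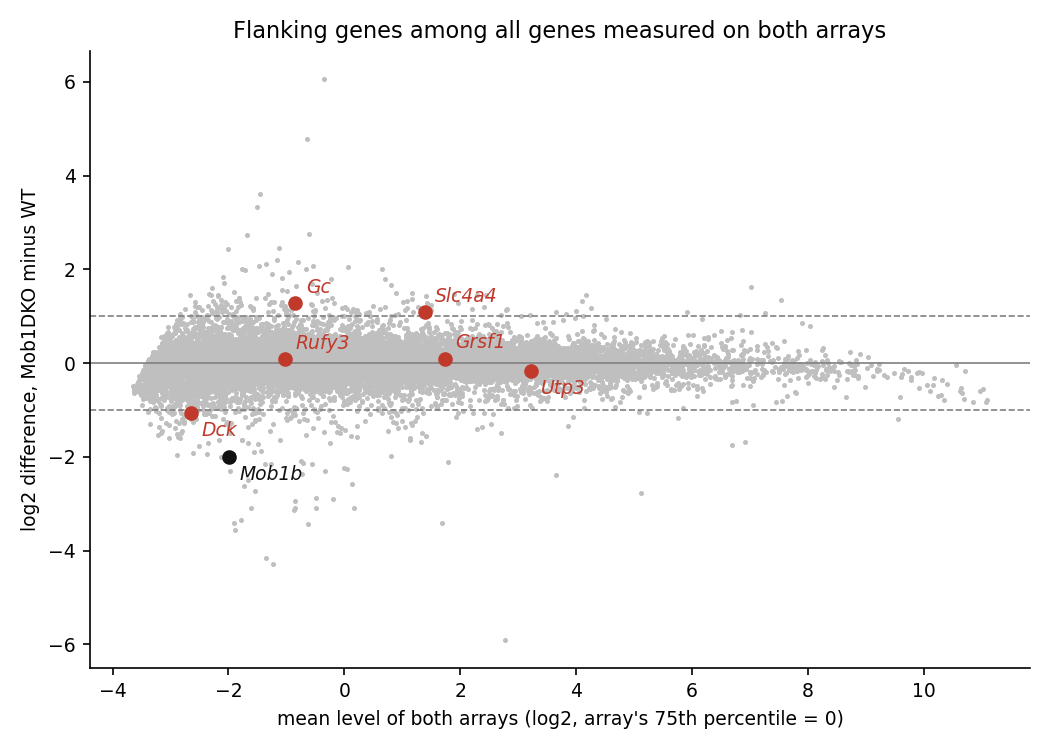
Log2 difference (Mob1DKO minus WT) against the mean level of both arrays for the genes well above background on both, each a grey point, with the 6 measured flanking genes in red and Mob1b in black; dashed lines mark 2-fold. Mob1b at −2.001 lies below the bulk of the points with few others around it, Slc4a4 at 1.08 and Gc at 1.28 lie at the upper edge, Dck at −1.06 at the lower edge and Rufy3, Grsf1 and Utp3 inside.

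Promoter sequences of the flanking genes were compared for CpG content and for 2 motifs. They come from RefSeq on GRCm38.p6, whereas the array grid names mm9, and span 250 bases before to 50 after a start. All 9 genes matched, with 12 promoters. CpG dinucleotides, the sites of DNA methylation that are dense in the promoters of broadly used genes, had a median of 7 over all 32851 promoters, with quartiles of 3 and 20. The genes called higher had from 0 (Gc) to 50 (a Slc4a4 start) CpG. Dck had 23, Mob1b 29, and the uncalled Utp3 30. The 4 promoters shown are those of the genes called on both arrays, with both Slc4a4 starts, since their difference in CpG content is visible by eye. Capitals mark CpG dinucleotides.
Gc (chr5:89457849-89458148, minus strand): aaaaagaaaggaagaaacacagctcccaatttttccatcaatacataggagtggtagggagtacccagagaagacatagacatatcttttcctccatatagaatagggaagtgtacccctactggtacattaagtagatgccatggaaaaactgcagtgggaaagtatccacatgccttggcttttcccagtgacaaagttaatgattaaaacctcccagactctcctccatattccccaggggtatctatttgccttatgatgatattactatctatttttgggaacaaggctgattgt
Slc4a4 start with 50 CpG (chr5:88887010-88887309, plus strand): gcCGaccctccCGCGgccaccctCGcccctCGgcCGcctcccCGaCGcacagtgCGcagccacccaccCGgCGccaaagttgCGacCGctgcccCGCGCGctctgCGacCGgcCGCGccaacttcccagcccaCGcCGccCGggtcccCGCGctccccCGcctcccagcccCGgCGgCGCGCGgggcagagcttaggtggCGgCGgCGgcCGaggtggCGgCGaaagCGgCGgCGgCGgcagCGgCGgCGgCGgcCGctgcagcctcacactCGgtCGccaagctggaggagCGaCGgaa
Slc4a4 start with 3 CpG (chr5:89027716-89028015, plus strand): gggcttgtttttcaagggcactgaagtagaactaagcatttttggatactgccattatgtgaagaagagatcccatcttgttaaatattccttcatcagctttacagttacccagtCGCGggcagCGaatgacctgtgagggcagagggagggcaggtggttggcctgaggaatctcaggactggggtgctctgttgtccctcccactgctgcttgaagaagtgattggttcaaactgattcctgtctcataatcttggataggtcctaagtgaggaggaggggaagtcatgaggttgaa
Dck (chr5:88764763-88765062, plus strand): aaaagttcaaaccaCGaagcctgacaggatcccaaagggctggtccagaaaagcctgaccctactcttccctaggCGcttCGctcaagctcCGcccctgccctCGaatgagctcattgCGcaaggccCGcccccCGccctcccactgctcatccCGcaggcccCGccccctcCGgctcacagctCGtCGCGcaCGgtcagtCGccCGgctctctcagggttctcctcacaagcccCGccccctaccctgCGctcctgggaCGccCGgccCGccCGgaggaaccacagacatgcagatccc

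The Gc promoter thus held no CpG and lay among the CpG-poorest, while the upstream Slc4a4 start exceeded 99.1% of all promoters. The Slc4a4 probes are assigned to the same transcript accession, so the values do not say which start was used. The motif GGAATG of the TEAD factors, through which YAP and TAZ act, was in none of the 12 promoters, against 14.7% of all promoters. TATAAA was in 1 of 12, a Rufy3 start, against 13.6% of all. Both motifs were read on both strands. These matches describe the letters in this window and say nothing about binding.

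Genes that share a role with each flanking gene were examined beside it. The lists were chosen with earlier results of these data known. Across the lists 14 genes were called, among them the flanking genes Jchain, Slc4a4, Gc, Npffr2 and Dck themselves. Over all 15099 named genes with a value, 3.79% were called higher and 2.91% lower, and nothing about the roles is read from the count. Of the 14 calls, 3 were kept under the normexp correction: Slc4a10 at 1.11, Afm at −1.79 and Utp18 at −1.02. With signal well above background required on both arrays, 5 of the 14 remained: Slc4a4, Gc, Dck, Cftr and Rrm2. For Slc4a4, of 20 bicarbonate transport genes 19 were measured, 3 were higher including Slc4a4 and 0 were lower, and the list median was 0.03. Cftr, the apical chloride and bicarbonate channel of airway epithelium, was 2.11-fold higher with a level of 0.66 in Mob1DKO and −0.42 in WT. Slc4a10, another sodium bicarbonate transporter, was at least 4.98-fold higher, and the brightest member, the carbonic anhydrase Car4, differed by −0.45. For Dck, of 24 deoxynucleoside salvage and supply genes 20 were measured and Dck was the only gene called lower. Rrm2, the small subunit of ribonucleotide reductase, was 2.02-fold higher, and the purine salvage enzyme Pnp, the brightest, differed by 0.13. The list median was −0.02.

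For Gc, of 14 vitamin D and albumin family genes 12 were measured, with Gc higher, Afm lower and a median of 0.00 (−0.0019). Lrp2, the endocytic receptor megalin that takes up Gc in kidney, was the brightest and differed by 0.49. For Jchain, 10 of 17 immunoglobulin and plasma cell genes were measured, 3 were higher (Jchain, Cd79a and Tnfrsf17) and the median was 0.30. Pigr, the receptor that carries J-chain-joined antibody across epithelium, was the brightest and differed by 0.86, at 8.34 in Mob1DKO and 7.47 in WT. For Npffr2, 5 of 10 genes of RF-amide peptides and their receptors were measured. Besides Npffr2, the prolactin-releasing peptide receptor Prlhr was called higher, with a bound of 1.02-fold and a difference of −0.31 under the normexp correction, and the ligand gene Npff differed by −0.26.

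The lists of the genes that differed little held few calls. Of 31 measured processome genes, Utp15 was at least 2.70-fold higher and Utp18 at least 3.24-fold lower. The list median was 0.04, and Utp6, the brightest, differed by 0.00 (0.0029). None of 10 measured genes of RUFY and ARL8 transport was called, with a median of 0.07 and the brightest, Plekhm2, at −0.05. None of 23 measured genes of mitochondrial RNA granules was called either, with a median of 0.00 (−0.00016) and Hsd17b10 at 0.06. For Adamts3, none of 15 measured genes of procollagen and VEGF-C processing was called, with a median of −0.12 and the brightest, the VEGF receptor Kdr, at −0.60.

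**Figure D4:**
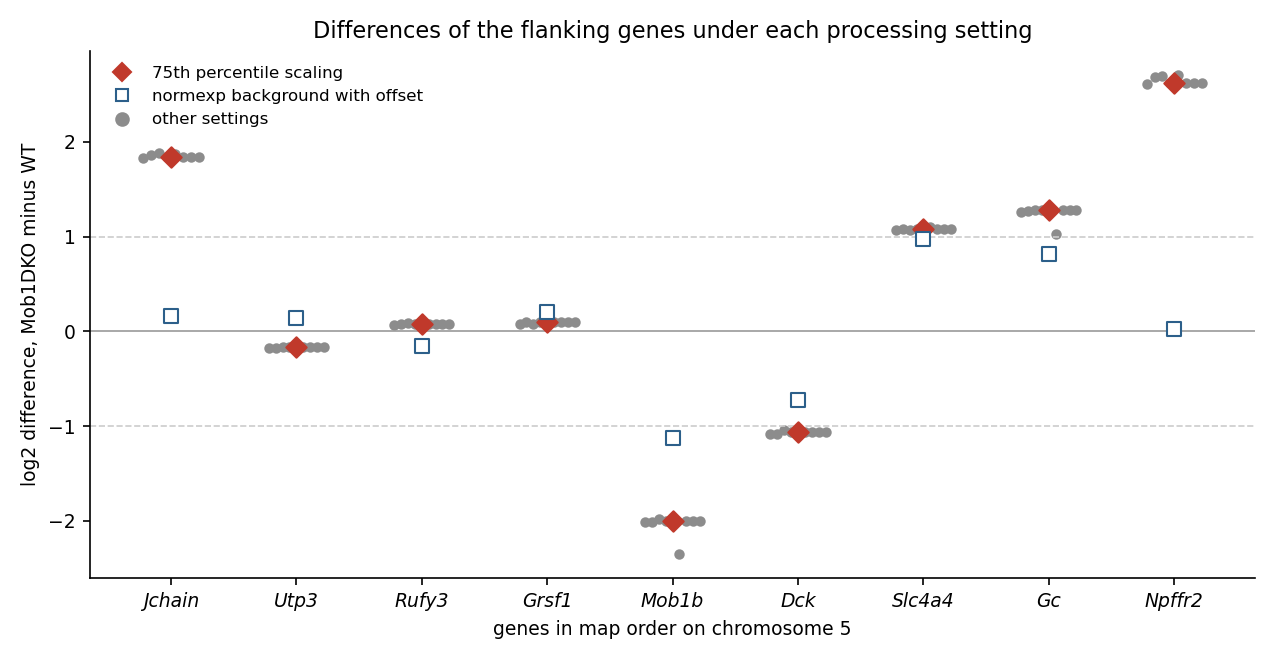
Log2 difference (Mob1DKO minus WT) of Mob1b and the 8 measured flanking genes under 75th percentile scaling (red diamonds), the normexp background correction with offset (open blue squares) and the other settings (grey dots), with any shift of the median of all genes above 0.1 removed. Jchain and Npffr2 drop to 0.16 and 0.03 under normexp, whereas Slc4a4 stays at 0.98 and Mob1b at −1.13.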

How the data were processed

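The files are those of 2 Agilent 1-colour mouse arrays, 1 per group, grouped by title (Mob1DKO) and source name (WT). Per the file headers, Agilent Feature Extraction 10.7.1.1 made the deposited intensity values, whereas 9.5.1.1 is the version in the submitters' processing notes. Per the file headers, this processed signal had its background subtracted and was detrended, and arrays were not normalized to each other. The deposited value table holds intensity values on a linear scale, not centred, with a median of 27.3 in each column. It lay within 0.1% of a quantile normalization of the processed signal for 99.5% of Mob1DKO and 99.2% of WT probes, so it has the direction of the labels.

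Spots were averaged per probe, control spots were left out, and log2 was taken minus the 75th percentile of each array over 55681 probes. Names came from RefSeq accessions. For several probes, the gene value is that of the brightest probe, counting probes well above background in Mob1DKO, in WT or in both. A bound sets the brighter level against the higher of the dim probe and the lowest level well above background, −4.10 in Mob1DKO and −3.45 in WT. It holds for this scaling and is not a detection limit. The technical SD used probes at 10 spots well above background on both arrays (271) within 1 of the level. The number of arrays limits the precision. The scanner files hold no mean signal, so normexp (limma 3.58.1, offset 50) used the median spot signal. Alternatives were median, quantile, loess (span 0.3) and no scaling, normexp, the value table, the mean of several probes, other background filters and removal of outlier spots. Calling steps were tested on simulated data, with differences well past the threshold planted in bright genes well above background on both arrays. That test does not cover faint genes, genes measured on 1 array or differences near the threshold. Named genes were the 9 flanking genes, Mob1a and Mob1b, called and nearest genes of each neighbouring set, and called and brightest genes of each role list. Markers came from a fixed list, and Afp was named after its value was seen. The flanking genes and lists were chosen with earlier results of these data known. Calculations used Python 3.11.15 and R 4.3.3.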

Additional observations from a re-analysis of the deposited data

Results flagged for a closer look

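Gm7056, a long non-coding RNA gene between Npffr2 and Adamts3, is not among the 9 genes and was picked out because its probe gave signal in Mob1DKO above that in WT. Its level was −1.84 in Mob1DKO, well above background, and −5.75 in WT, not well above background, and the bound was at least 3.06-fold higher in Mob1DKO. It was the only gene with a probe among 6 other genes listed between Jchain and Adamts3 besides Mob1b. Its difference was not tested.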

How the results depend on the processing

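Of the 80 values of single genes measured on both arrays under the 10 alternatives, 71 moved by less than the technical SD. This count is no measure of robustness, since several alternatives could not move these values. No scaling, read relative to the median shift of all genes, and the other background filters returned the same values. Averaging probes alters only genes with several probes. Of these genes only Dck moved by less than its technical SD under normexp. Mob1b and the 5 called flanking genes kept their sign under every alternative that measured them. Under normexp with offset, 0 flanking genes were called higher and 0 lower, their median was 0.15, that of the outer chromosome 5 neighbours was −0.03 (−0.0304), and 4 genes of the role lists were called (Afm, Slc4a10, Utp18 and, newly, Pigr), against 14. This setting replaces the processed signal by the median spot signal and adds an offset, and their parts were not told apart. The cause was not tested. With probes required to be well above background on both arrays, which leaves out Jchain and Npffr2, 2 flanking genes were called higher, the median was 0.09 (0.0883), and 5 genes of the role lists were called (Cftr, Dck, Gc, Rrm2 and Slc4a4). With no background filter, which adds Adamts3, the median of the flanking genes was 0.10 (0.0959) and that of the outer neighbours −0.06 (−0.0579). Without scaling the median of all genes shifted by 0.91, which gave 6149 genes higher and 174 lower (97.2% higher), and values were read relative to this shift. Over all genes, 99 were called higher and 173 lower under normexp (36.4% higher), 174 and 198 with both arrays required (46.8%), and 801 and 1208 with no filter (39.9%), against 572 and 439 (56.6%). Signal over background limits Jchain, Npffr2, Dck and Adamts3. No paired analysis was possible because each group has 1 array.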
